A study of Mus musculus with 17 samples.

Results

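The 9 genes described here encode matricellular proteins of wound matrix: the tenascins Tnc and Tnr, periostin (Postn), the thrombospondins Thbs1, Thbs2 and Thbs4, Sparc and its relative Sparcl1, and fibronectin (Fn1). They were taken from the expression table by symbol: every probe set annotated to 1 of these genes alone was kept, 16 of the 34945 single-gene probe sets on the array, for 9 of 18193 genes. One further probe set, annotated to both Pald1 and Thbs1, was left out. A 4.5 mm length of thoracic spinal cord was measured from each of 17 mice, 1 array per mouse. Of the mice, 6 were naive, 5 received the isotype control and 6 received anti-RGMa.

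The mice were female C57BL/6 (C57BL/6J in the study's methods), labelled as 8 weeks old, and no gene was altered. By the purchase age and schedule in the study's methods, the immunized mice were older than this when cord was taken. Both antibody groups had targeted experimental autoimmune encephalomyelitis (EAE): they were immunized with a myelin oligodendrocyte glycoprotein peptide in complete Freund's adjuvant, received pertussis toxin, and had TNF-α and IFN-γ injected into the thoracic cord. Antibody was given intravenously at 10 mg/kg from 9 days post injection (DPI), and a 4.5 mm length of cord around the injection site was taken at 14 DPI. The isotype control was palivizumab, a humanized antibody against a viral protein, and the other antibody was directed against repulsive guidance molecule a (RGMa), a membrane protein that restrains axon growth. The naive mice were not injected, so that every difference from them includes immunization, surgery, cytokine injection and antibody together, and these cannot be told apart.

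Matricellular proteins are secreted into the extracellular matrix, where they regulate how cells adhere, migrate and respond to growth factors rather than bearing load. Most are scarce in resting adult tissue and are made by fibroblasts, macrophages, astrocytes and vessel cells in wounds; in the central nervous system some, such as tenascin-R and the SPARC-like protein, are also made in the intact tissue. Fibronectin is the structural scaffold on which many of them assemble, and is listed with them here for that reason.

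Promoter windows, the 250 bases before a transcription start in RefSeq (GRCm38.p6), were held for 6 of the 9 genes (Tnc, Tnr, Postn, Thbs2, Thbs4 and Sparc). The windows of Tnc, Postn and Thbs2, which were called in the same comparisons below, are shown with that of Tnr, which was called in none. Capitals mark matches on either strand to the TATA box (TATAAA), the AP-1 site (TGANTCA), the GC box (GGGCGG), the SMAD box (CAGACA) and the TEAD site (CATTCC).
Tnc, chr4:64046937-64047186, minus strand: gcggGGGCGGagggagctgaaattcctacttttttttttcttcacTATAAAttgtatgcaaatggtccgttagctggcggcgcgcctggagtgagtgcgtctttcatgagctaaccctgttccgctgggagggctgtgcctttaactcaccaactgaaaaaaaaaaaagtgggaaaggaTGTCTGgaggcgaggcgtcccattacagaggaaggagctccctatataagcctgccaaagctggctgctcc
Postn, chr3:54360857-54361106, plus strand: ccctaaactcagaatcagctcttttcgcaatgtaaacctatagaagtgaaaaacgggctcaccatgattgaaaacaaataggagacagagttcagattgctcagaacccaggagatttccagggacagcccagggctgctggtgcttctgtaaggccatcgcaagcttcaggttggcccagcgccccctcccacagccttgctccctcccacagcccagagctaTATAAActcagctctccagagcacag
Thbs2, chr17:14694263-14694512, minus strand: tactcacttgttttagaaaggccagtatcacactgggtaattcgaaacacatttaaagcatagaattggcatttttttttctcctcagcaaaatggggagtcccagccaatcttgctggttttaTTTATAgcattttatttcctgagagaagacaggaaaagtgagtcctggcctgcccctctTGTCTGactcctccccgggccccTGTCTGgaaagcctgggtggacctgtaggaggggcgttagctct
Tnr, chr1:159523519-159523768, plus strand: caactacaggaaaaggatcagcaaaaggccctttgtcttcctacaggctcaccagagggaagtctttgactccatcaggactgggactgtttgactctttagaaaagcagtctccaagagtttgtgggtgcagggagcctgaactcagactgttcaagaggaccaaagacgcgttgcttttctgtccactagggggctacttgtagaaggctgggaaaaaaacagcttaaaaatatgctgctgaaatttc
Tnc and Postn each had a second window. The Postn window shown held TATAAA starting 26 bases before the start, and its other window held none of the letters searched. In the Tnc window shown the TATAAA match began 205 bases upstream and the SMAD box 71 bases upstream, whereas in its other window TATAAA began 126 bases upstream and no SMAD box was found. The GC box began 246 bases upstream in the Tnc window shown, and in Thbs2 the SMAD boxes began 67 and 44 bases upstream. The Tnr window held none of the letters searched. The windows of Sparc and Thbs4, which were also called in none of the main comparisons, are not shown but did hold matches. Sparc had 1 SMAD box, and Thbs4 had 3 GC boxes, 1 SMAD box and 2 TEAD sites. Of all 32851 windows of this length, 12.4% held TATAAA, 6.75% the AP-1 letters, 32.7% the GC box, 17.1% the SMAD box and 12.6% the TEAD letters. A match is a description of letters and not a binding site.

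Values are log2 of the deposited array signal, so 1 unit is a doubling, and they compare mice for a given probe set and not one probe set with another. A gene with several probe sets was led by the one with the highest mean over the 17 arrays. A difference was called at the study's threshold, an unadjusted limma p under 0.05 with a fold over 1.5, and p-values adjusted over all 45037 probe sets (Benjamini-Hochberg) are given beside it. Because the cord piece was bulk tissue, fewer cells of a type and less RNA per cell cannot be told apart. Nothing says that mice were handled in pairs or batches, and the p-values measure the spread between mice.

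Before the results, 1 array has to be set apart, and others of its group stood out less strongly. In isotype control replicate 4 the summed signal of 12 skeletal muscle markers was 134488, where the group started at 501 and had a median of 8887, while the naive arrays had 355 to 3559 and the anti-RGMa arrays 584 to 2092. The same array had the highest sum of 7 fibroblast markers, 91888, where the isotype control group started at 19174, the naive arrays lay between 5368 and 11763 and the anti-RGMa arrays between 6694 and 22996. Isotype control replicates 3 and 5 had muscle sums of 13232 and 8887, also above every naive and anti-RGMa array. Replicate 3 had a fibroblast sum of 65052, and replicates 1 and 2 had 31866 and 30287, all above every naive and anti-RGMa array too. The muscle sums of replicates 1 and 2 were low, at 671 and 501. Replicate 5 had the lowest fibroblast sum of the group, 19174, within the anti-RGMa range. Neuron markers, which define cord, were present in every array, with a summed signal of 97484 to 106375 in naive, 37582 to 62134 in isotype control and 41739 to 78653 in anti-RGMa cord. Results that rest on isotype control replicate 4 are given with and without it where leaving it out moved them. Leaving it out keeps replicates 3 and 5. The antibody difference is therefore also given without replicates 3, 4 and 5.

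Relative to naive cord, the isotype control mice had a large rise in 5 of the 9 genes and a fall in 1. Tnc, Postn, Thbs1, Thbs2 and Fn1 were 5.97-fold to 26.0-fold higher, Sparcl1 was 1.79-fold lower, and Tnr, Thbs4 and Sparc did not pass. Among the 16 probe sets 10 were called higher and 1 lower, where over all probe sets 15.7% were called higher and 15.8% lower. All of these calls also had an adjusted p under 0.05, as 14.5% (higher) and 14.6% (lower) of all probe sets had. The median log2 difference was 2.46 over the 16 probe sets and -0.04 over all. In 11 of the 16 every isotype control array lay above every naive array and in 1 every one lay below, where 14.1% and 16.0% of all probe sets separated that way.

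**Figure D1:**
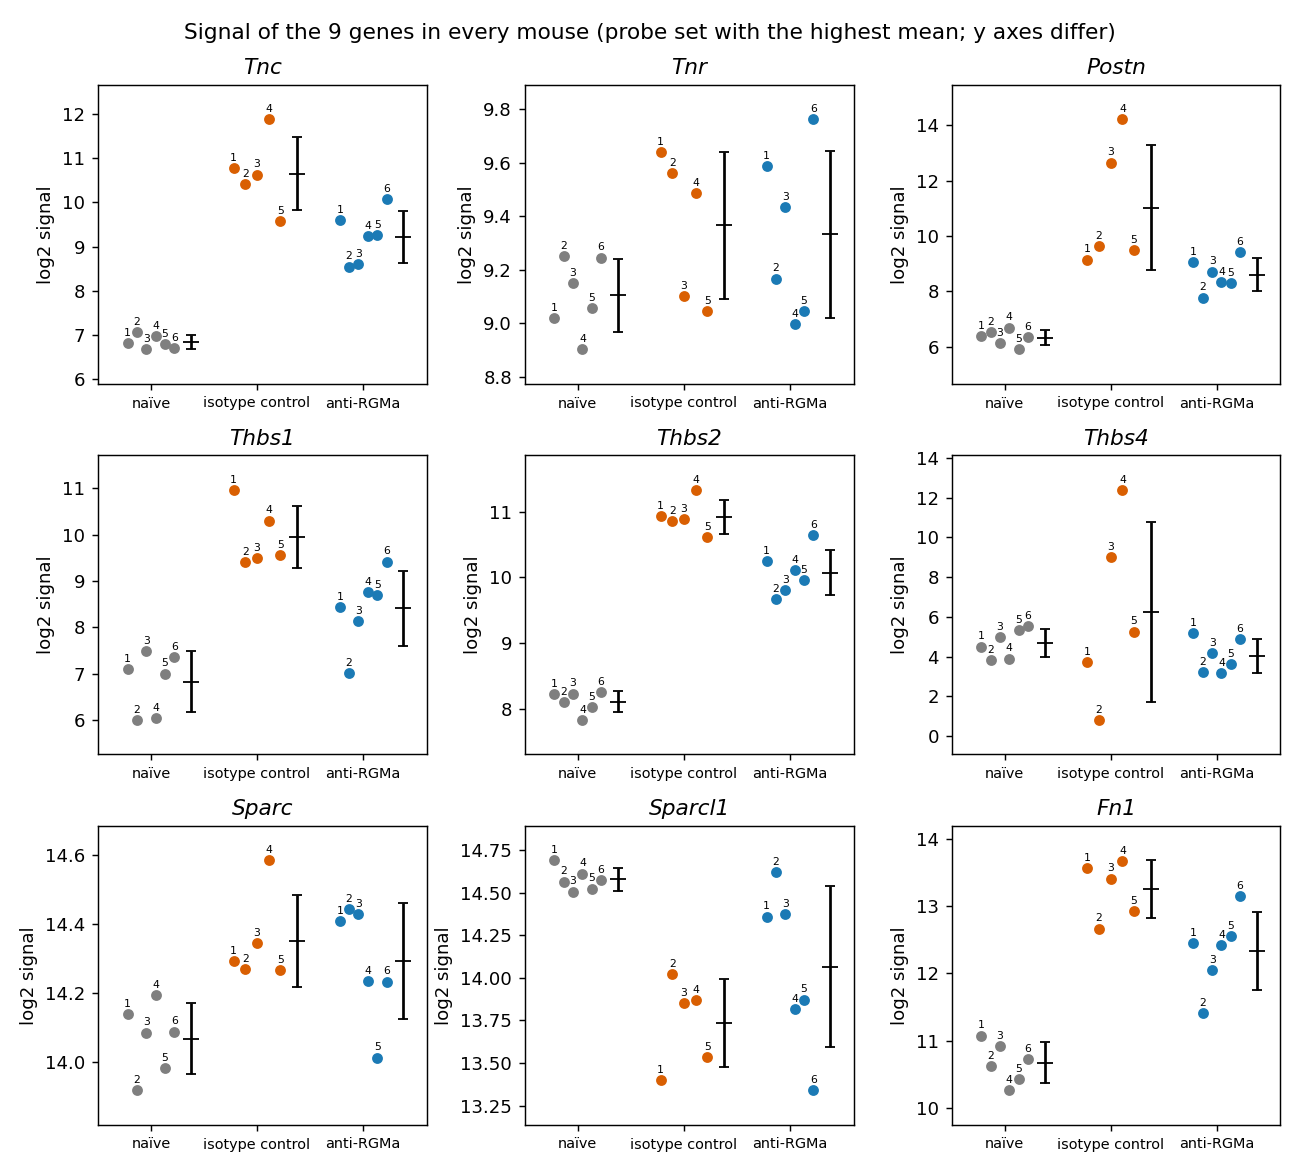
Log2 signal of the lead probe set of each of the 9 genes in every mouse (points, numbered by replicate), with the group mean and SD beside them, for naive (n = 6), isotype control (n = 5) and anti-RGMa (n = 6) cord. Tnc, Postn, Thbs1, Thbs2 and Fn1 are lowest in naive, highest in isotype control and between them in anti-RGMa cord by group mean, while Sparcl1 runs the other way and Tnr stays level.

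Tenascin-C is a large oligomeric glycoprotein that appears at sites of injury and inflammation, and its relative tenascin-R is confined to the nervous system, where it forms part of the nets around neurons. Tnc in naive cord ran from 6.68 through a median of 6.80 to 7.08. In isotype control cord it was 10.77, 10.41, 10.62, 11.87 and 9.58 in replicates 1 to 5, and in anti-RGMa cord it ran from 8.55 through a median of 9.25 to 10.07. The naive arrays lay below all EAE arrays, and the antibody groups overlapped only because isotype control replicate 5 lay within the range of the anti-RGMa arrays. Tnc was 14.0-fold higher in isotype control than in naive cord (log2 difference 3.81, SE 0.33, adjusted p = 3.58e-07) and 5.20-fold higher in anti-RGMa than in naive cord (adjusted p = 4.18e-05). The dimmer second Tnc probe set was called in both comparisons as well, at 7.36 ± 0.97 (SD, n = 5) in isotype control and 5.74 ± 0.66 (SD, n = 6) in anti-RGMa against 3.16 ± 2.32 (SD, n = 6) in naive cord. Tnr was 9.10 ± 0.14 (SD, n = 6) in naive, 9.37 ± 0.27 (SD, n = 5) in isotype control and 9.33 ± 0.31 (SD, n = 6) in anti-RGMa cord, and the 3 ranges overlapped. Its log2 difference of isotype control from naive was 0.26, with a 95% confidence interval of -0.06 to 0.59 (adjusted p = 0.191).

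Periostin, a fasciclin-domain protein that binds integrins and crosslinks collagen, is a marker of matrix-producing fibroblasts. Postn in naive cord ran from 5.90 through a median of 6.37 to 6.69. In isotype control cord it was 9.14, 9.64, 12.65, 14.22 and 9.49 in replicates 1 to 5. Replicates 3 and 4 stood above the others. They also had the highest fibroblast sums of the group (65052 and 91888) and its highest muscle sums (13232 and 134488). In anti-RGMa cord it ran from 7.77 through a median of 8.53 to 9.42, above all naive arrays and overlapping the lower isotype control arrays. Postn was 26.0-fold higher in isotype control than in naive cord (log2 difference 4.70, SE 0.74, adjusted p = 0.000104). It was 4.84-fold higher in anti-RGMa than in naive cord (log2 difference 2.27, adjusted p = 0.0204). Without isotype control replicate 4 the first difference was 3.90 and was still called. Without isotype control replicates 3, 4 and 5 it was 3.06, also called. With each array's mean fibroblast marker level in the fit neither Postn difference from naive was called (1.19 and 0.72). That level ran from 8.79 to 10.01 in naive and from 10.65 to 13.44 in isotype control cord, without overlap. The fit therefore cannot separate it from the group in isotype control against naive cord.

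Thrombospondin-1 is a trimeric platelet and macrophage glycoprotein that activates latent TGF-β and restrains vessel growth, and thrombospondin-2 shares much of its domain plan. Thbs1 in naive cord ran from 6.01 through a median of 7.05 to 7.49. It was 10.96, 9.41, 9.48, 10.30 and 9.56 in isotype control replicates 1 to 5 and ran from 7.01 through a median of 8.57 to 9.42 in anti-RGMa cord, whose lowest array overlapped the naive range. Thbs1 was 8.61-fold higher in isotype control (adjusted p = 2.69e-05) and 2.98-fold higher in anti-RGMa than in naive cord (adjusted p = 0.00615), and its second probe set was called in both.

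By the SE of the lead probe set, Thbs2 was the tightest of the genes that rose. It ran from 7.83 through a median of 8.16 to 8.25 in naive cord, was 10.93, 10.86, 10.90, 11.34 and 10.61 in isotype control replicates 1 to 5, and ran from 9.67 through a median of 10.04 to 10.64 in anti-RGMa cord. Neither antibody group overlapped the naive arrays, and only the highest anti-RGMa array reached the isotype control range. The difference from naive was 2.82 (SE 0.16, 7.05-fold, adjusted p = 4.68e-09) in isotype control and 1.97 (3.91-fold, adjusted p = 1.63e-07) in anti-RGMa cord. The other Thbs2 probe sets were called higher in isotype control at 5.09-fold and 9.88-fold, and in anti-RGMa as well.

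Thbs4, a pentameric thrombospondin of tendon, muscle and synapses, was dim and varied widely. It ran from 3.84 through a median of 4.74 to 5.52 in naive cord and from 3.17 through a median of 3.91 to 5.16 in anti-RGMa cord. In isotype control replicates 1 to 5 it was 3.73, 0.81, 9.00, 12.38 and 5.26, so that the arrays at 9.00 and 12.38 were the pair that also led in Postn. No Thbs4 difference was called, the isotype control minus naive difference being 1.56 with a 95% confidence interval of -1.51 to 4.63 (adjusted p = 0.429). Without isotype control replicate 4 that difference was 0.02, and with each array's mean skeletal muscle marker level in the fit it was -1.05, neither called.

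SPARC binds collagen and calcium and helps matrix assemble, and SPARC-like 1 (hevin) is an astrocyte protein that promotes the formation of synapses. Both were among the brightest probe sets. Sparc was 14.29, 14.27, 14.34, 14.59 and 14.27 in isotype control replicates 1 to 5, replicate 4 standing above the rest. It was 14.07 ± 0.10 (SD, n = 6) in naive, 14.35 ± 0.13 (SD, n = 5) in isotype control and 14.29 ± 0.17 (SD, n = 6) in anti-RGMa cord. All isotype control arrays lay above all naive arrays, but the 1.22-fold difference stayed short of the 1.5-fold limit (adjusted p = 0.0238). A second bright probe set gave 1.23-fold (adjusted p = 0.039), and the dimmest one was 1.36-fold lower in isotype control than in naive cord (adjusted p = 0.0522).

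Sparcl1 ran from 14.51 through a median of 14.57 to 14.69 in naive cord and was 13.40, 14.02, 13.85, 13.87 and 13.53 in isotype control replicates 1 to 5, below every naive array. It ran from 13.34 through a median of 14.12 to 14.62 in anti-RGMa cord, overlapping both other groups. Sparcl1 fell by 0.84 in isotype control cord (SE 0.19, 1.79-fold, adjusted p = 0.00188). With the fibroblast marker level in the fit, which did not overlap between naive and isotype control arrays, it differed by -0.62 and was not called. The 1.43-fold difference of anti-RGMa from naive cord missed the fold limit (adjusted p = 0.0392). At the study's threshold 15.7% of all probe sets were higher and 15.8% lower in isotype control than in naive cord. Beside the fall of Sparcl1, all 8 neuron markers were lower in that comparison, and of 8 astrocyte markers 2 were higher and 1 lower. Whether these had a part in the fall of Sparcl1 was not tested.

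Fibronectin is deposited by fibroblasts and macrophages and carries binding sites for integrins, collagen and heparan sulphate. Fn1 ran from 10.26 through a median of 10.67 to 11.07 in naive cord and was 13.57, 12.66, 13.41, 13.67 and 12.93 in isotype control replicates 1 to 5. In anti-RGMa cord it ran from 11.40 through a median of 12.44 to 13.14, above every naive array and into the isotype control range. It was 5.97-fold higher in isotype control (log2 difference 2.58, SE 0.27, adjusted p = 2.17e-06) and 3.18-fold higher in anti-RGMa than in naive cord (adjusted p = 0.000153). The dimmer Fn1 probe set rose 6.61-fold in isotype control cord and was called in anti-RGMa cord too.

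In anti-RGMa against naive cord, 10 of the 16 member probe sets were called higher and none lower, against 11.7% higher and 10.3% lower over all probe sets, and the same 5 genes made up the calls by lead probe set as in isotype control cord. All 10 had an adjusted p under 0.05, against 10.6% (higher) and 8.78% (lower) of all probe sets. In 7 of the 16 every anti-RGMa array lay above every naive array, where 9.88% of all probe sets did and 10.9% lay below. The median log2 difference was 1.5 over the members and -0.05 over all. The 2 comparisons share the naive arrays.

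**Figure D2:**
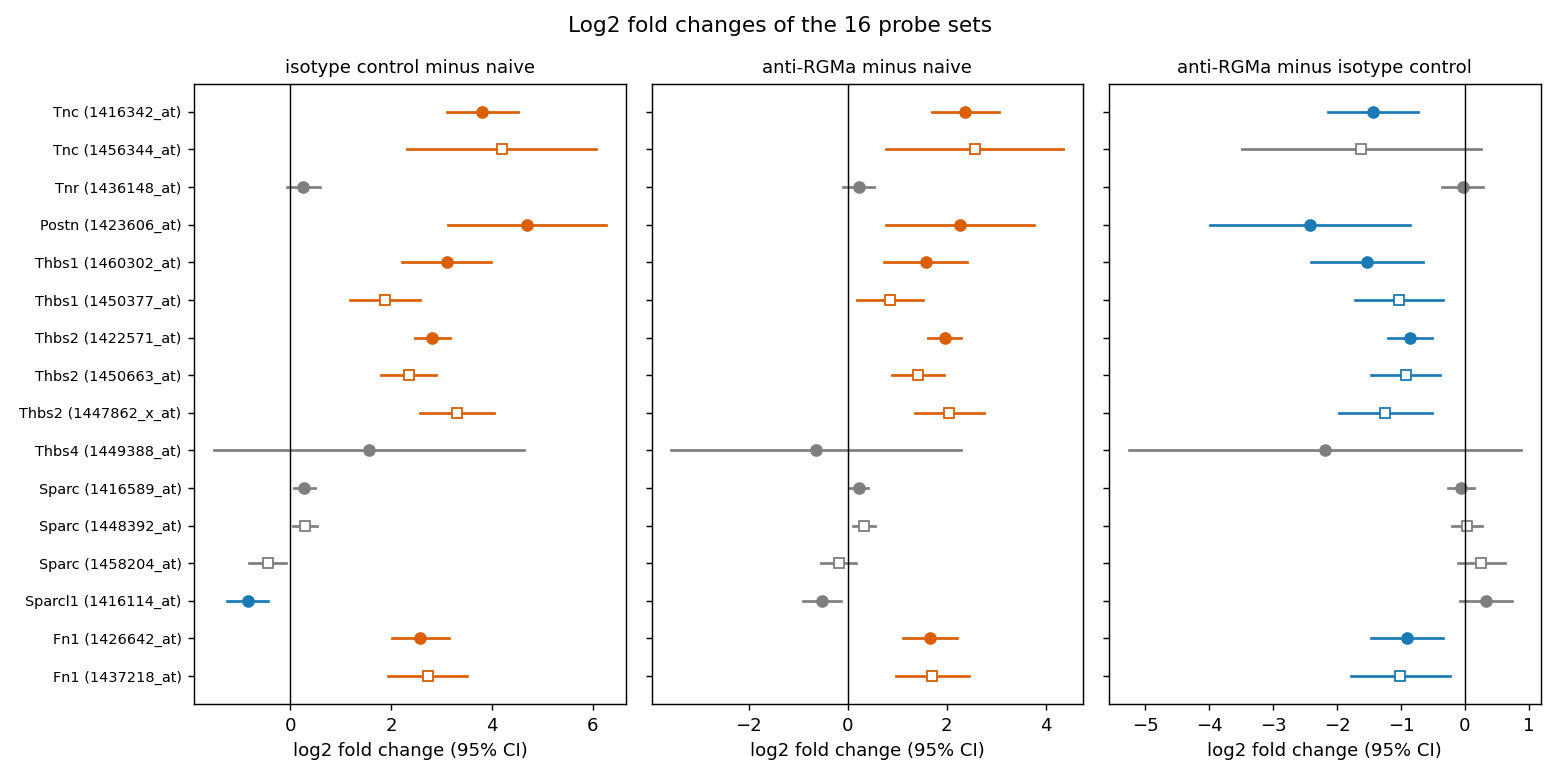
Log2 differences of the 16 member probe sets in the 3 comparisons, with 95% confidence intervals: filled circles are lead probe sets and open squares the others, orange marks a call of higher, blue a call of lower and grey no call. The 5 genes called higher against naive in both antibody groups are those called lower in anti-RGMa against isotype control. Both comparisons that include isotype control share its arrays, so high values there move them in opposite directions.

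Between the antibody groups the question was whether blocking RGMa went with other levels of wound matrix genes at the same time after the lesion. Tnc, Postn, Thbs1, Thbs2 and Fn1 were 1.81-fold to 5.37-fold lower in anti-RGMa than in isotype control cord at the study's threshold, and none of the 9 genes was higher. Of the 16 probe sets 9 were called lower and none higher, against 2.58% lower and 1.53% higher over all probe sets. The median log2 difference was -0.97 over the 16 and 0.00 over all. None of these calls held after adjustment over all probe sets, where limma called 0 at an adjusted p under 0.05 and 5504 (12.2%) at an unadjusted p under 0.05. In no member probe set did the antibody groups separate (0.264% of all probe sets separated upward and 0.429% downward), so every difference below is one of means between overlapping groups.

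Tnc was 2.70-fold lower (log2 difference -1.43, SE 0.33, adjusted p = 0.302) and Postn 5.37-fold lower (-2.42, SE 0.74, adjusted p = 0.308). Thbs1 was 2.89-fold lower (-1.53, SE 0.41, adjusted p = 0.302), Thbs2 1.81-fold lower (-0.85, SE 0.16, adjusted p = 0.256) and Fn1 1.88-fold lower (-0.91, SE 0.27, adjusted p = 0.302). For each of these 5 lead probe sets all 6 anti-RGMa arrays lay below the isotype control mean. For Postn that mean (11.03) was lifted by isotype control replicates 3 and 4. Replicates 1, 2 and 5 of the same group also lay below it, at 9.14, 9.64 and 9.49. The second Thbs1 probe set was 2.04-fold lower, the other Thbs2 probe sets 1.90-fold and 2.37-fold lower, and the second Fn1 probe set 2.02-fold lower. The second Tnc probe set differed by -1.62 (3.07-fold lower, all 6 anti-RGMa arrays below the isotype control mean) and, with its larger SE of 0.88, was not called (adjusted p = 0.462).

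The other genes did not pass, and their intervals differ in what they allow. Tnr differed by -0.03 (95% confidence interval -0.36 to 0.29) and Sparc by -0.06 (-0.26 to 0.14), so a 1.5-fold difference lies outside both. Sparcl1 was 1.26-fold higher, a difference of 0.33 (-0.07 to 0.73), with 5 of 6 anti-RGMa arrays above the isotype control mean. Thbs4 differed by -2.19 (-5.26 to 0.88), too wide an interval to place. It was -0.43 with the skeletal muscle level in the fit, and it was called lower with 32 added to every signal before log2, which damps dim values (-1.99, limma adjusted p = 0.355).

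Single arrays decided how firm the antibody difference was. Without isotype control replicate 4 Postn was -1.63 and Tnc -1.13, and all 5 genes were still called, while Thbs4 went from -2.19 to -0.66. Without anti-RGMa replicate 6 the limma adjusted p fell to 0.0323 for Thbs2, 0.0408 for Tnc, 0.0453 for Fn1 and 0.0473 for Thbs1. It was 0.0834 for Postn, and 869 probe sets passed an adjusted p under 0.05. Without isotype control replicate 4 as well, it was 0.0544 for Thbs2, 0.0596 for Tnc, 0.0793 for Fn1, 0.0819 for Thbs1 and 0.109 for Postn. With both arrays left out all 5 genes were thus still called, but none after adjustment. Without isotype control replicates 3, 4 and 5, whose muscle marker signals were the highest, Postn was -0.79 and called and Fn1 was -0.78 and no longer called (unadjusted p = 0.0595).

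**Figure D3:**
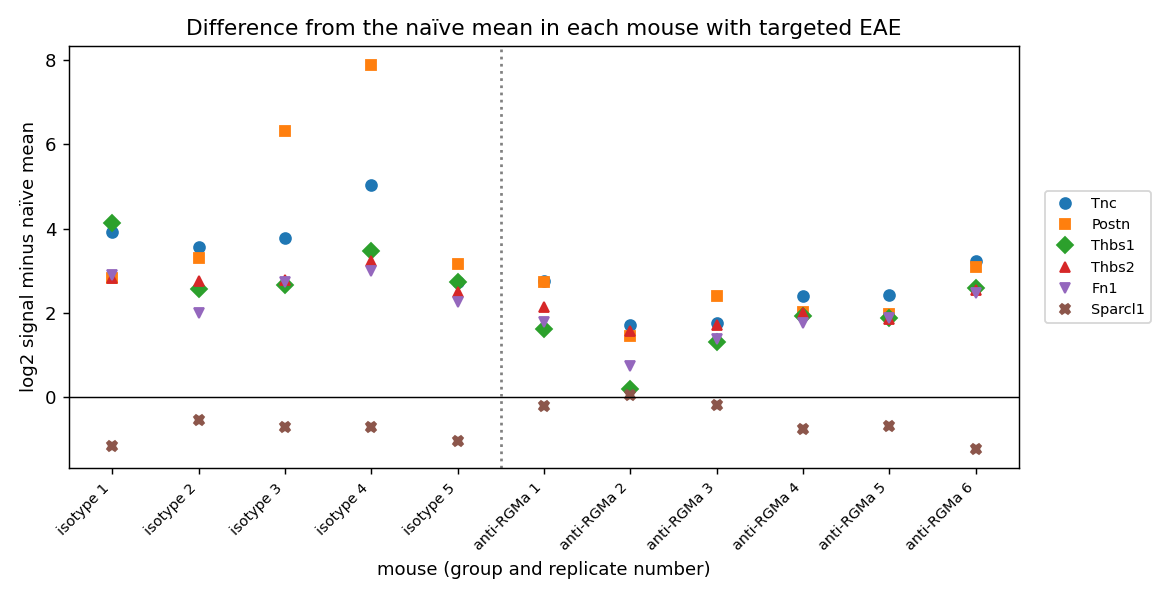
Log2 signal minus the naive mean (y axis) of Tnc, Postn, Thbs1, Thbs2, Fn1 and Sparcl1 in each mouse with targeted EAE (x axis, by group and replicate number), 1 symbol per gene and mouse. Anti-RGMa replicate 6 is the highest and replicate 2 the lowest of their group in the 5 genes above 0, and isotype control replicate 4 is the highest of its group in 4 of them.

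Within the anti-RGMa group replicate 6 was the highest and replicate 2 the lowest for every one of Tnc, Postn, Thbs1, Thbs2 and Fn1. Within the isotype control group replicate 4 was the highest for 4 of them, and replicate 1 was the highest for Thbs1 and the lowest for Postn. Anti-RGMa replicate 6 also had the highest macrophage sum of its group, 68484 where the group started at 45082, and the lowest neuron sum, 41739. Anti-RGMa replicate 2 had the lowest fibroblast sum, 6694, and the highest neuron sum, 78653.

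Over the 17 arrays, with group means removed, Pearson's r among the 10 pairs of Tnc, Postn, Thbs1, Thbs2 and Fn1 ran from 0.0768 (Postn and Thbs1) to 0.844 (Thbs2 and Fn1). It was 0.826 between Thbs1 and Fn1, 0.82 between Tnc and Thbs2, 0.713 between Thbs1 and Thbs2, 0.698 between Tnc and Postn, 0.679 between Tnc and Fn1, 0.547 between Postn and Thbs2, 0.456 between Tnc and Thbs1 and 0.442 between Postn and Fn1. Thbs1, Thbs2 and Fn1 thus varied together, and Postn and Thbs1 did so least. Without isotype control replicate 4, Tnc and Postn went from 0.698 to 0.43 and Postn and Thbs2 from 0.547 to 0.349, while Thbs2 and Fn1 stayed at 0.84. Postn and Thbs4 had an r of 0.877 with that array and 0.729 without it. Sparcl1 ran against Thbs1 at -0.691 and against Fn1 at -0.663. These arrays share dissection and scaling, and the values are a description.

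The genes whose pattern was most like each member, by Pearson's r over the 17 arrays with group means removed searched among genes whose log2 signal averaged 8 or more, were as follows. Tnc was most like Sh3d19 (0.892), the matrix proteoglycan Vcan (0.872) and Cav1 (0.858), and Tnr most like Zfp839 (0.891), Marcks (0.839) and Itgb5 (0.838). Postn was most like Thbs3 (0.932), Fndc1 (0.931), Antxr1 (0.929), Cthrc1 (0.92) and the collagen-degrading protease Ctsk (0.917). Among the thrombospondins, Thbs1 was most like Jmjd1c (0.878), Dab2 (0.875) and Ecm1 (0.865), and Thbs2 most like Anxa2 (0.888), Mtfr1 (0.875) and Tubb6 (0.864). Thbs4 was most like Airn (0.896), Ctsk (0.879) and Postn (0.877). Without isotype control replicate 4 the same genes had 0.81 to 0.847 with Postn, 0.729 to 0.786 with Thbs4 and 0.757 to 0.833 with Tnc. Sparc was most like Zfp623 (0.871), Tmem141 (0.81) and Suds3 (0.791), and Sparcl1 most like Kif1b (0.96), Nckap1 (0.953) and Ids (0.949). Fn1 was most like Plp2 (0.945), Sec24d (0.919) and Shc1 (0.916).

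Other matricellular proteins were mostly higher in isotype control than in naive cord. Over all probe sets 15.7% were called higher and 15.8% lower in that comparison. The shares were 11.7% and 10.3% in anti-RGMa against naive cord, and 1.53% and 2.58% in anti-RGMa against isotype control cord. Against naive cord, the counts of lower genes in this list were near these shares. In the receptors and matrix assembly they were below them, with few genes in each list. Of 21 measured, 13 were higher and 3 lower in isotype control than in naive cord, with a median log2 difference of 1.40, and in anti-RGMa against naive cord 7 were higher, 2 lower and 12 not called. The matrix-binding lectin galectin-3 (Lgals3) rose by 4.99, the TGF-β-induced protein Tgfbi by 4.13, and the CCN family members Ccn5 and Ccn1 by 3.81 and 3.49 in isotype control cord. Between the antibody groups 7 of 21 were lower and none higher, with a median of -0.61, and 3 were lower without isotype control replicate 4. Ccn1 fell by 1.01 and fibulin-2 (Fbln2) by 1.14 in anti-RGMa relative to isotype control cord, both short of significance after adjustment (adjusted p = 0.321 and 0.319). Galectin-1 (Lgals1) fell by 0.64 (adjusted p = 0.302), and the proteoglycan Spock1 differed by 0.45 and was not called.

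Cell-surface receptors of these proteins, integrins, syndecans and scavenger receptors among them, were counted in the same way. Of 19 measured, 7 were higher, 1 lower and 11 not called in anti-RGMa against naive cord, where 11.7% of all probe sets were higher and 10.3% lower. In isotype control against naive cord 10 were higher and 2 lower, the higher ones including syndecan-1 (Sdc1), a heparan sulphate proteoglycan, by 3.33, the thrombospondin receptor Cd36 by 4.79 and the integrin chains Itga4 by 2.52 and Itgb5 by 1.80. In anti-RGMa against isotype control cord 2 of 19 were lower, with a median of -0.11. Those were Sdc1 (-1.29, SE 0.26, adjusted p = 0.263) and the fibronectin receptor chain Itga5 (-1.05, SE 0.30, adjusted p = 0.302). The adhesion molecule Cntn1, a neuronal partner of tenascin-R, differed by 0.41 and the integrin chain Itga8 by -0.36, neither called.

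Of 14 genes of fibronectin and matrix assembly, 8 were higher and none lower in isotype control than in naive cord, and the same counts held in anti-RGMa cord. Transglutaminase 2 (Tgm2), which crosslinks fibronectin, rose by 3.43 and Tgfb1, the growth factor held latent in the matrix, by 2.41. The procollagen protease Bmp1 rose by 1.93 and the collagen chaperone Serpinh1 by 2.44. In anti-RGMa against isotype control cord 6 of 14 were lower and none higher, with a median of -0.51. Serpinh1 fell by 1.19, the collagen lysyl hydroxylase Plod2 by 0.91, Tgm2 by 0.81 and Tgfb1 by 0.64, with adjusted p between 0.302 and 0.315.

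**Figure D4:**
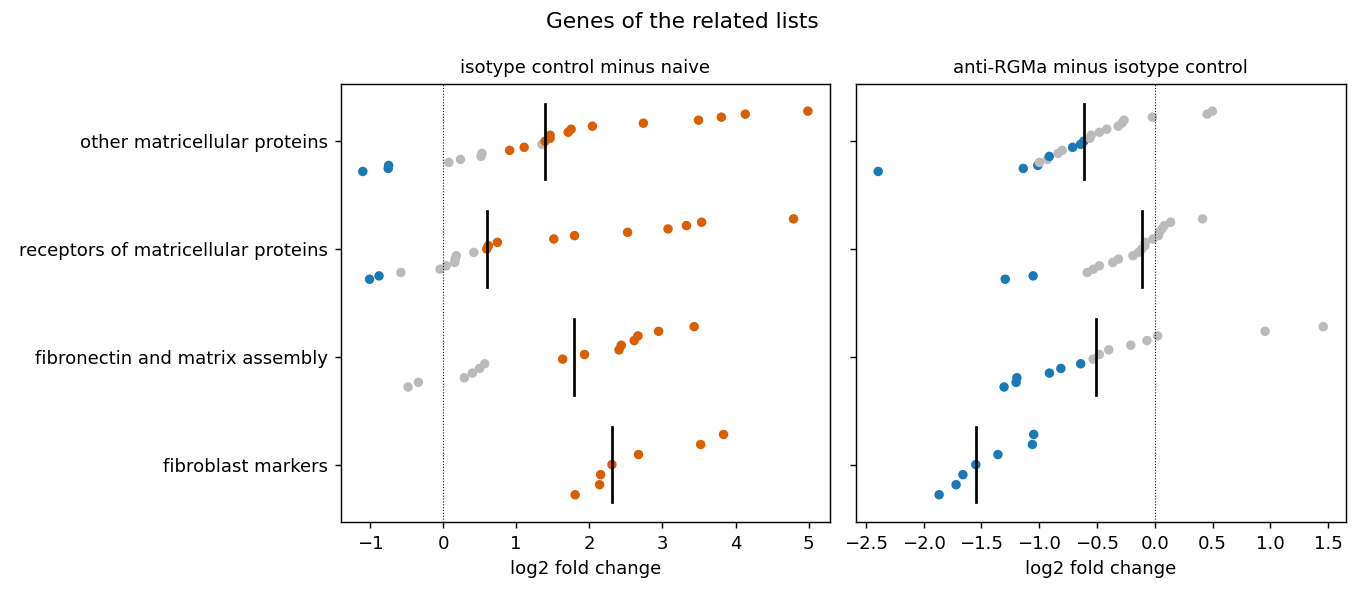
Log2 differences of the genes of 4 lists in isotype control minus naive and anti-RGMa minus isotype control, 1 point per gene by its lead probe set, with a black bar at the list median. Orange marks a call of higher, blue a call of lower and grey no call. All 7 fibroblast markers lie above 0 on the left and below 0 on the right. Both panels share the isotype control arrays, so they are not independent.

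Several cell type marker lists moved with these results. Over all probe sets 15.7% were called higher and 15.8% lower in isotype control against naive cord. Between the antibody groups 1.53% were called higher and 2.58% lower in anti-RGMa cord. All 7 fibroblast markers measured were higher in isotype control than in naive cord (median 2.31) and all 7 were lower in anti-RGMa than in isotype control cord (median -1.55). Without isotype control replicate 4, 6 of the 7 were lower (median -1.09). All 10 macrophage and monocyte markers were higher in both antibody groups than in naive cord, and 3 of the 10 were lower in anti-RGMa than in isotype control cord (median -0.39). Of the 12 skeletal muscle markers 3 were lower, and of the 8 neuron markers 2 were higher, in anti-RGMa than in isotype control cord, and without isotype control replicate 4 none of the muscle markers was called there. Of 7 mural and smooth muscle markers 5 were higher in isotype control than in naive cord and 3 lower in anti-RGMa than in isotype control cord (median -0.74), and of 7 endothelial markers 5 were higher and 2 lower in the same comparisons (median -0.31 between the antibody groups). No meningeal marker of 5 was called between the antibody groups, nor any of 8 astrocyte or 7 oligodendrocyte markers (medians 0.20 and 0.25). Of 6 sensory ganglion markers 2 were higher in anti-RGMa than in isotype control cord (median 0.99). Their summed signal was 9417 in anti-RGMa replicate 1, where the group median was 3684. Naive arrays had 3809 to 5027 and isotype control arrays 2131 to 2655.

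With each array's mean fibroblast marker level in the fit, none of the 5 antibody calls remained: the differences were -0.68 for Tnc, -0.48 for Postn, -0.83 for Thbs1, -0.51 for Thbs2 and -0.32 for Fn1. Thbs2 kept an unadjusted limma p of 0.00912 there and missed the fold limit. With the macrophage marker level in the fit all 5 remained, at -1.37 for Tnc, -2.81 for Postn, -1.07 for Thbs1, -0.74 for Thbs2 and -0.66 for Fn1. With the skeletal muscle marker level all 5 remained as well, Postn being -1.61. Fibroblasts make several of these proteins, and the fibroblast marker level differed between the antibody groups itself, so its part and that of the antibody cannot be told apart.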

How the data were processed

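Total RNA of thoracic spinal cord of 17 mice was measured on Affymetrix Mouse Genome arrays, 1 array per mouse. Per the labels, the authors processed the arrays with MAS5 and affy; their methods give global scaling and tests in limma. The deposited values are linear signal intensity, unit by array, with a trimmed mean (2% cut from each end) of 500 in each array. Signals ran from 0.0118 to 44408. Detection calls were not used. No arrays were identical.

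From these values log2 was taken without an offset and without a filter on low values. After 64 control probe sets were left out, 45037 probe sets were fitted together over the 3 groups with limma 3.58.1 in R 4.3.3 (lmFit, eBayes). Gene symbols came from the platform annotation and were checked against RefSeq by gene ID for 34741 probe sets, with 0 symbols changed. Of the probe sets, 34945 had 1 gene, 932 several and 9160 none. Figures were drawn in Python 3.11.15 with matplotlib 3.10.9.

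All 16 probe sets of the 9 genes are reported, and each gene is named by its brightest probe set. From each of the lists of other matricellular proteins, receptors and matrix assembly, the 4 genes with the smallest p were named in a comparison. The members and gene lists were chosen with earlier results of these data known. The limma fit was tested on simulated data. The number of arrays limits the precision. Alternatives were other scaling, offset, filter, probe set choice, variance model, weights, covariates, a replicate block and leaving out arrays.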

Additional observations from a re-analysis of the deposited data

Results flagged for a closer look

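Of 48 groups of arrays tested over the 16 probe sets, 3 held 1 array far from the others, where chance gives about 1 in 20. The Thbs2 probe set that was 9.88-fold higher in isotype control than in naive cord was lowest in naive replicate 1 at a log2 signal of 5.74, where the other naive arrays lay between 6.96 and 7.60. The lead Sparc probe set was highest in isotype control replicate 4 at 14.59, against 14.27 to 14.34 in the others of that group. The dimmer Fn1 probe set was lowest in naive replicate 4 at 5.74, against 6.63 to 7.12.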

How the results depend on the processing

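Of 816 refits of single genes under the alternatives, 799 gave the same call or lack of one, 9 lost a call, 5 gained one and 3 reversed with a call. The sign changed in 15 refits, 6 of Tnr, 5 of Thbs4 and 4 of Sparc. Thbs4 reversed with a call in 3: to 1.77 for anti-RGMa minus isotype control and -2.41 for isotype control minus naive without isotype control replicates 3, 4 and 5, and to -4.64 for isotype control minus naive with the fibroblast level as a covariate (chosen after seeing the data, as were the macrophage covariate and leaving out isotype control replicate 4 with anti-RGMa replicate 6). The cause was not tested. The fibroblast level did not overlap between naive and isotype control arrays, so that covariate fit cannot separate it from the group there. With these 3 isotype control arrays left out, 2 of the 9 genes were lower in isotype control than in naive cord and 1 was higher in anti-RGMa than in isotype control cord. With the fibroblast covariate 0 of the 9 were lower in anti-RGMa than in isotype control cord and 1, Thbs4 at -3.39, was lower in anti-RGMa than in naive cord.

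In anti-RGMa minus isotype control, the percent of all features called higher (1.53) was 0.435 with an offset of 32, 0.75 for the brighter part of the probe sets, 2.32 with the muscle covariate, 2.37 with the fibroblast and 1.01 with the macrophage covariate, 4.2 without isotype control replicates 3, 4 and 5, and 3.49 without isotype control replicate 4 and anti-RGMa replicate 6. The percent called lower (2.58) was 1.68 with the offset, 1.41 without the 3 isotype control arrays and 0.919 with the fibroblast covariate. The number at an adjusted p under 0.05 (0) was 1 with the mean of probe sets, 1 with 1 probe set per gene, 3 with only the 2 groups, 1 with trend and robust, 16 without the 3 isotype control arrays and 1 without isotype control replicate 4 and anti-RGMa replicate 6.

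Leaving out each array in turn gave 0 to 869 at an adjusted p under 0.05, 1.25 to 2.92 percent higher and 1.89 to 3.68 percent lower, with 5 to 6 of the 9 genes lower. It gave 5 to 6 genes higher in isotype control than naive, and 0 to 1 lower in anti-RGMa than naive; the additional calls were Thbs4 without isotype control replicate 2 (2.91 and, between antibody groups, -3.55) and Sparcl1 without anti-RGMa replicate 2 (-0.63). Arrays with the same number were not clearly alike. Of 16 same-number pairs 6 correlated over 0.1 (median 0.033, from -0.333 to 0.404), and the median of different-number pairs was 0.00226. Of 17 arrays 4 were most like one of their own number. These correlations cannot exclude that mice of the same number shared a batch. The replicate block gave 1 feature at an adjusted p under 0.05 and kept all 5 calls (Thbs1 -1.68, Postn -2.51). Dim probe sets, Thbs4 above all, have the least signal over background.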
